A study of Mus musculus with 2 samples.

Results

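The cytosolic ribosomal protein genes were described in the single-cell RNA data of labelled mammary tumor cells. Members were the gene symbols on the authors' list of kept genes that begin with Rpl or Rps and a digit, together with Rpsa, Rplp0, Rplp1 and Rplp2. S6 kinase genes and symbols marked as pseudogenes were left out. The rule found 84 of the 16037 kept symbols. Of these, 77 encode constituents of the ribosome, 46 of the large and 31 of the small subunit, and are called core members here. The other 7 carry the prefix but differ from the core: Rpl3l, Rpl7l1, Rpl22l1, Rpl36al, Rps27l and Rps27rt are paralogs or copies of core genes, and Rps19bp1 encodes a protein that binds RPS19 and is no ribosomal protein.

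The tumors came from 2 mice of a single genotype, Krt8-CreERT/Rosa26-mTmG/MMTV-PyMT, each sequenced as 1 library, and there was no untreated or unlabelled group. MMTV-PyMT drives the polyoma middle T oncogene from a viral promoter that is active in mammary epithelium, Krt8-CreERT makes a tamoxifen-dependent recombinase in cells expressing the luminal keratin Krt8, and Rosa26-mTmG turns green (GFP) wherever the recombinase has acted, so that descendants of a labelled cell stay green. Both mice had received tamoxifen at 150 mg/kg on 6 days, 3 in week 5 and 3 in week 6 of age, and tumors were taken at a volume of 1.5 cm3. Live GFP+ cells negative for CD31 and CD45, proteins of endothelial cells and leukocytes, were sorted. The authors divided the annotated cells into 18 clusters, numbered 0 to 17, among which they set cluster 6 (lumino-basal) against cluster 13 (luminal).

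Each cytosolic ribosome holds a single copy of nearly every ribosomal protein, so the genes are transcribed at high and similar levels in growing cells. Their mRNAs start with a run of pyrimidines at the 5′ end, the 5′ TOP motif, through which the mTORC1 kinase controls their translation. The mRNAs are abundant, short and stable, and lie in the cytoplasm, whereas long noncoding RNAs such as Malat1 stay in the nucleus.

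The pyrimidine run could be seen in the reference sequence around the annotated start of several members. RefSeq start windows (GRCm38.p6) were at hand for 64 of the 84 genes. A run of at least 7 consecutive C or T bases within 10 bases on either side of the start was found in 27 of 76 member windows (35.5%) and in 12.2% of the 32851 windows of all genes, read on the gene's own strand. The 4 windows printed here are of the most abundant member, of the member with the largest fall between clusters 6 and 13, and of a paralog pair that moved in opposite directions. Each spans 30 bases, 15 before and 15 from the annotated start. The longest pyrimidine run within those 10 bases of the start is in capitals. In Rps27l this run lies wholly before the annotated start and outside the annotated transcript, whereas in the other windows it spans the start.

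Rps24, chr14:24490663-24490692, plus strand: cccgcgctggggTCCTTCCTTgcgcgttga

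Rpl27a, chr7:109519180-109519209, plus strand: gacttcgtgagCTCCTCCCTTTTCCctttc

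Rps27, chr3:90213634-90213663, minus strand: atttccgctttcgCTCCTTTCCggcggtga

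Rps27l, chr9:66946071-66946100, plus strand: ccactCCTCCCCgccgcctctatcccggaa

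Depth differed between the clusters and between the mice. The annotated cells numbered 3829 in mouse 1 and 5330 in mouse 2, with 58629906 and 56972644 unique molecular identifiers (UMIs, 1 per captured transcript). Sums per mouse and cluster, 36 in all, were the unit of each test, because cells of a mouse are not replicates. Median UMIs per cell ranged from 1258 in cluster 1 to 33078.5 in cluster 16 in mouse 1, and from 1009 to 26972 in the same clusters in mouse 2. The matrices of the mice shared 20 barcodes, 9 of them annotated. Epithelial markers (Epcam, Krt8, Krt18 and 3 others) summed to between 3288 and 27615 CPM (counts scaled to a UMI total of 1e+06) in every sum, whereas fibroblast markers were at most 232 CPM outside cluster 6 and reached 1472 and 2850 CPM in cluster 6.

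Ribosomal protein genes gave 19.5% of all annotated UMIs in mouse 1 and 19.8% in mouse 2. The share was lowest in cluster 1, with 12.7% in mouse 1 and 10.1% in mouse 2 (11.4% ± 1.84, mean ± SD, n = 2 mice). It was highest in cluster 5, with 26.1% and 27.9% (27.0% ± 1.32). Both ends were the same cluster in each mouse, and the share in cluster 5 exceeded that in cluster 1 by 2.05-fold in mouse 1 and 2.76-fold in mouse 2. Clusters 4 (24.7% ± 0.55), 3 (24.2% ± 1.99), 14 (23.3% ± 1.25), 16 (22.8% ± 1.79) and 13 (22.1% ± 1.19) followed from the top, and clusters 2 (15.8% ± 1.43), 8 (16.6% ± 2.31) and 6 (17.1% ± 0.61) from the bottom. For 15 of the 17 pairs of neighbours in the order of all 18 clusters the ranges of the mice overlapped. With 2 mice the lowest p that an exact permutation test of 1 cluster pair can reach is 0.5, so the order is given as a description. Over the 18 clusters the shares of the mice went together (Pearson r = 0.84, Spearman rho = 0.74), and without cluster 1 r was 0.77. The points share the clustering, which used both mice and these same genes.

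**Figure D1:**
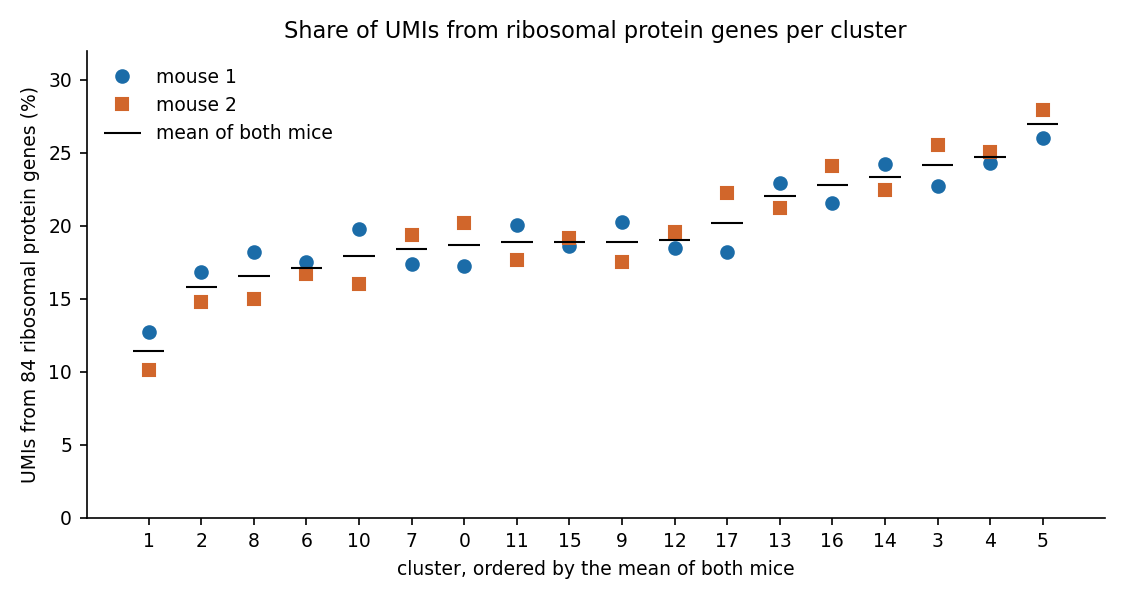
Share of UMIs from the 84 ribosomal protein genes (percent, y axis) in each of the 18 clusters (x axis, ordered by mean). Circles are mouse 1, squares mouse 2 and bars the mean of both; cluster 1 lies lowest, at 12.7% and 10.1%, and cluster 5 highest, at 26.1% and 27.9%.

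Clusters 1 and 5 were also the shallowest of the 18 clusters, and lay at opposite ends. The median cell of cluster 1 had 1258 UMIs in mouse 1 and 1009 in mouse 2, with 45 and 33 members detected. In cluster 5 the median cell had 2059 and 1638.5 UMIs, with 80 and 79 members detected. A cell of cluster 1 therefore held a median of 85 and 47 member UMIs, against 814 and 499.5 in cluster 5. Shares were spread widely within both clusters. In cluster 1, 36.8% and 51.3% of the cells had a share under 5%, and 3.48% and 0.60% had a share over 30%. In cluster 5 no cell of mouse 1 and 0.37% of those of mouse 2 were under 5%, and 49.5% and 41.2% were over 30%. In cluster 6, which had deeper cells, 0.38% and 0.60% were under 5% and 6.54% and 2.40% over 30%.

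**Figure D2:**
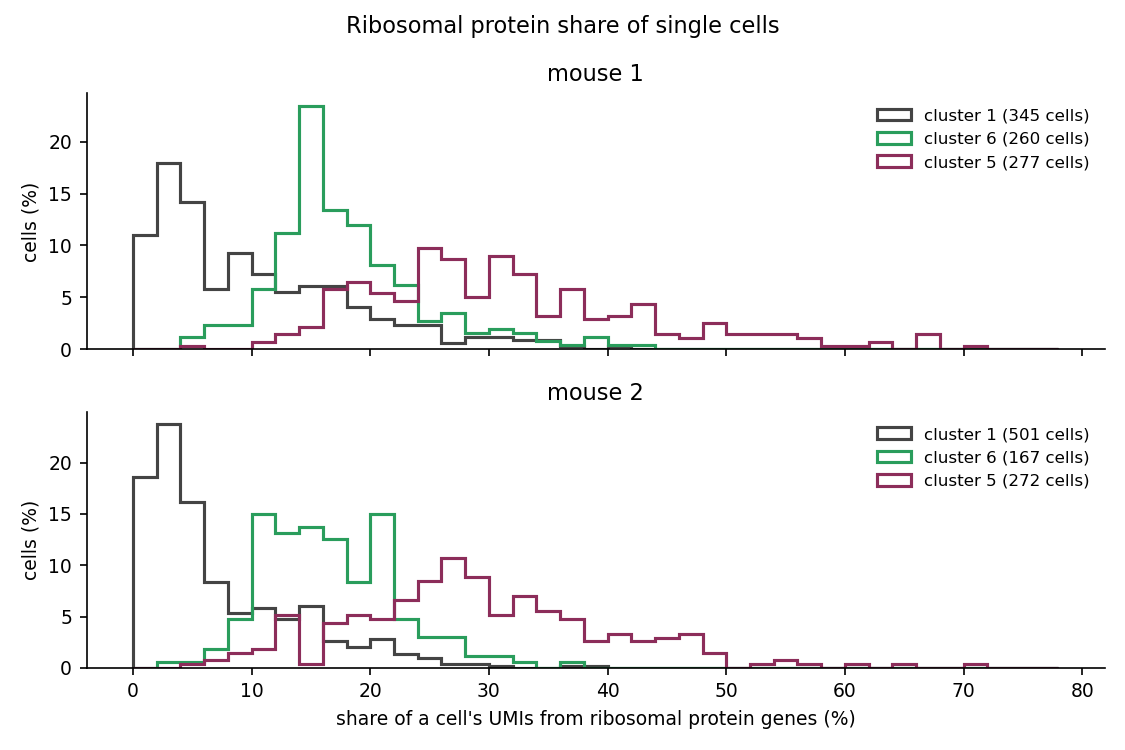
Distribution of the ribosomal protein share over single cells (percent of a cell's UMIs, x axis; percent of cells in bins of 2 points, y axis) in clusters 1, 6 and 5 of each mouse. Cells of cluster 1 pile up under 5%, while 49.5% and 41.2% of the cells of cluster 5 lie above 30%.

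Nuclear and mitochondrial RNA were high in cluster 1, where the ribosomal protein share was lowest. Malat1 and Neat1 together reached 75942 CPM in mouse 1 and 75127 CPM in mouse 2, above every other cluster, where the sum lay between 7834 and 44272 CPM. Mitochondrially encoded genes gave 10.3% and 8.96% of the UMIs of cluster 1 and 5.56% and 4.70% of those of cluster 5. They also gave 10.0% and 11.1% of those of cluster 11, where the ribosomal protein share was 20.0% and 17.7%. Leaving mitochondrial UMIs out of the denominator gave 12.6% in cluster 1 and 28.4% in cluster 5. The part of these RNAs and of depth in the shares was not tested. A lower share from fewer ribosomal protein transcripts cannot be told apart from one due to more of other RNA.

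All members except Rpl3l, which had 24 UMIs in all, passed the count filter, which left 83 members among 11603 genes. By an F test over the 18 clusters 81 of the 83 members changed (edgeR, adjusted p under 0.05), and 81% of all tested genes did so. The 2 that missed were Rps19 (adjusted p = 0.11) and Rps15 (adjusted p = 0.076). Mean levels of a core member differed between its highest and lowest cluster by 1.50-fold (Rps15) to 4.31-fold (Rpl10), with a median of 2.69-fold. The lowest cluster was cluster 1 for 59 of the 77 core members and cluster 2 for 12, and the highest was cluster 5 for 53 and cluster 14 for 11.

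In cluster 1, 71 of 83 members were lower than the mean of the other clusters, against 18.2% of all genes, and 1 was higher, against 27.7%. This comparison and those of clusters 2, 3, 4, 5, 8 and 14 were picked after the values had been seen, as were the genes named in them. With TMM factors from genes outside the family and the mitochondrial genome, 76 were lower and 1 higher, against 22.2% and 22.7% of all genes. The median log2 fold change was -0.88 over the members and 0.20 over all genes, both subunits moving alike (median -0.88 for the large and -0.94 for the small). Rpl10, a large-subunit protein that joins late in assembly, was at 512 CPM in mouse 1 and 461 CPM in mouse 2 in cluster 1, the lowest of the 18 clusters in each mouse, where its median level was 1647 and 1677 CPM. It fell by 1.76 on the log2 scale (SE 0.16, adjusted p = 3.4e-09). Rps4x, the X-linked small-subunit gene, stood at 788 and 743 CPM, again the lowest of 18 in each mouse, and fell by 1.69 (SE 0.17, adjusted p = 1.5e-08).

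Rpl36, which encodes a large-subunit protein, was the exception. It was at 4238 CPM in mouse 1 and 3015 CPM in mouse 2 in cluster 1, against medians of 2502 and 2434 CPM over the clusters, and rose by 0.55 (SE 0.12, adjusted p = 0.0007). Within the family Rpl36 gave 3.33% and 2.98% of the member UMIs of cluster 1, more than in any other cluster of either mouse. Over the 77 core members, the log2 fold change in cluster 1 went with the GC content of the principal transcript (Spearman rho = 0.36) and against its length (rho = -0.38), a description across genes that share libraries.

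In cluster 5, 47 of 83 members were higher, against 0.845% of all genes, and none was lower, against 0.112%. All 83 were above 0 in each mouse on their own, against 32.5% of all genes. The median log2 fold change was 0.56 (all genes, 0.01). Rps26, a small-subunit protein at the mRNA exit channel, was at 2988 and 3967 CPM there, its highest level in each mouse, and rose by 0.77 (SE 0.17, adjusted p = 0.029). Rps24 had the largest fold change at 0.87 (SE 0.23) but missed the threshold (adjusted p = 0.065). Without the block for mouse no member passed in cluster 5, without mouse 1 of that cluster 1 member did, and without mouse 2 none did.

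Cluster 14, likewise shallow with 2908 and 2085 UMIs per cell, had 56 of 83 members higher, against 11% of all genes. Rpl41, whose product is the smallest ribosomal protein, was at 5747 and 5711 CPM in cluster 14 and rose by 0.79 (SE 0.12, adjusted p = 5.6e-05). Cluster 14 also carried immune markers, 179 CPM in mouse 1 and 1001 CPM in mouse 2. Over all annotated cells, S100a8 (mean 92.7 CPM) and Cd68 (18.6 CPM) were the highest of the 8 markers on this list. Lyz2 followed at 0.98 CPM, and Ptprc was at 0.12 CPM. Leaving out cells with UMIs of at least 3 fibroblast, endothelial or immune markers, 2 cells of mouse 2 in this cluster, gave 57 members higher. With library totals 40 were higher and 1 lower, while 8.91% of all genes were higher and 10.98% lower. Leaving out mouse 1 of cluster 14 gave 26 members and leaving out mouse 2 gave 5.

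Fewer members were called higher in cluster 4 (28, against 9.13% of genes), cluster 13 (34, against 16.4%) and cluster 3 (10, against 3.65%). In cluster 13, Rps19bp1 and Rpl7l1 were lower (2 of 83, against 10.3%), and neither is a core member. Left with 1 mouse, cluster 4 gave 11 without mouse 1 and 1 without mouse 2, cluster 13 gave 3 and 11, and cluster 3 gave 1 and 0. In cluster 6 against the mean of the others 5 were lower (8.48% of genes). In the remaining clusters 0 to 4 members were called in either direction. Cluster 10 had 4 (15.8% of genes), cluster 0 had 1 (7.69%), and clusters 9 and 17 had 0 (14.4% and 1.99%). Clusters 7, 11, 12 and 15 had 2 each, against 10.1%, 23.2%, 11% and 10.9% of genes.

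**Figure D3:**
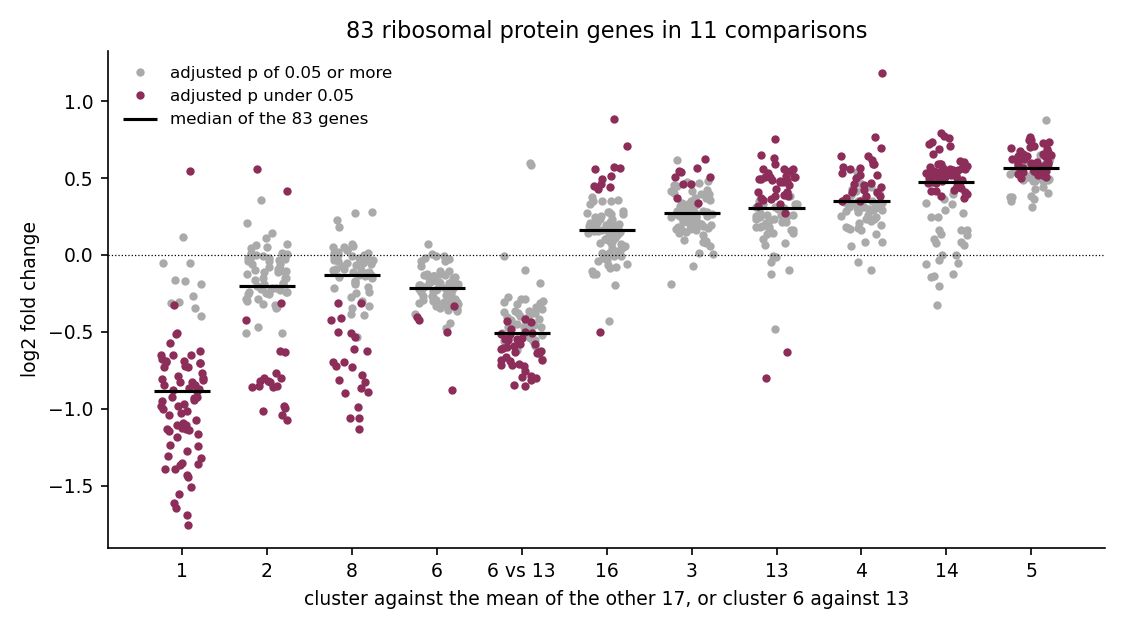
log2 fold change (y axis) of the 83 tested members in 11 comparisons (x axis). Points are genes, dark where the adjusted p was under 0.05, and bars are medians, which run from -0.88 in cluster 1 to 0.56 in cluster 5; in clusters 2 and 8 a group of members lies well below the rest.

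In clusters 2 and 8 most members lay below the mean of the other clusters (70 of 83 in each), and some passed the test. The median log2 fold change was -0.20 in cluster 2 and -0.13 in cluster 8. In cluster 8 it was -0.0048 in mouse 1 and -0.32 in mouse 2. Cluster 2 had 19 members lower (9.59% of genes) and 2 higher (13.3%), and cluster 8 had 23 lower (13.9%). Rpl13, a large-subunit protein, was at 2134 and 1748 CPM in cluster 2 and at 2494 and 1818 CPM in cluster 8, against medians of 3946 and 3921 CPM over the clusters. It fell by 0.99 in cluster 2 (SE 0.16, adjusted p = 9.5e-05) and by 0.90 in cluster 8 (SE 0.16, adjusted p = 0.00014). Rps20, a small-subunit protein, was at 1509 and 1137 CPM in cluster 2 and at 1465 and 1139 CPM in cluster 8, against medians of 2556 and 2843 CPM. It fell by 0.98 in cluster 2 (SE 0.19, adjusted p = 0.0008) and by 1.06 in cluster 8 (SE 0.20, adjusted p = 0.00023). The 2 that rose in cluster 2 were Rps27rt and Rpl22l1, both outside the core. Without mouse 2, with 662 cells in cluster 2 against 47 in mouse 1, 5 members were called lower there, and 14 without mouse 1. In cluster 8, 16 were called lower without mouse 1. Without mouse 2, 8 were lower and 2 higher there, and the median turned to 0.076. Both tested immune markers were higher in cluster 2 (S100a8 by 2.92 and Cd68 by 2.88 on the log2 scale), as were Malat1 (0.75) and Neat1 (0.49), and S100a8 was higher in cluster 8 (2.25). The immune markers summed to 232 and 622 CPM in cluster 2 and to 96.0 and 462 CPM in cluster 8. Their part in the members' values was not tested beyond leaving out cells with at least 3 markers of other cell types, which gave 19 lower in cluster 2 and 23 in cluster 8.

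The study compared cluster 6 with cluster 13 to find genes of the luminal-to-basal change. Ribosomal protein genes were lower in cluster 6 than in cluster 13: 38 of 83 members fell, against 10.4% of all genes, and none rose, against 11.9%. The median log2 fold change was -0.51 (all genes, -0.01). Both subunits took part, with 26 of 46 large-subunit and 10 of 31 small-subunit genes lower, as were Rpl36al and Rps27rt. In both mice 80 members were lower, against 35.3% of all genes.

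Rpl27a was at 2402 and 2623 CPM in cluster 6 and at 4244 and 4010 CPM in cluster 13, and fell by 0.85 (SE 0.22, adjusted p = 0.0057). Rps28 was at 1850 and 2330 CPM against 3227 and 3570 CPM, and fell by 0.84 (SE 0.24, adjusted p = 0.013). Rpl27a belongs to the large and Rps28 to the small subunit. Rps18 and Rplp0, the latter of which anchors the stalk of the large subunit, fell by 0.80 and 0.79 (SE 0.23 and 0.20).

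Some members of the prefix that are no core proteins lay higher in cluster 6 without passing the test. Rps19bp1 was at 77.4 and 48.4 CPM against 44.3 and 31.9 CPM (log2 fold change 0.60, SE 0.24, adjusted p = 0.072). Rpl7l1 was at 107 and 57.9 CPM against 50.02 and 45.9 CPM (0.59, SE 0.22, adjusted p = 0.052).

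The count rested on the setting. With library totals in place of TMM factors 10 members were lower and 2 higher (7.79% and 14.3% of all genes), and without cells holding at least 3 fibroblast, endothelial or immune markers, 41 of 260 and 44 of 167 cells of cluster 6, 15 were lower and 2 higher (9.26% and 10.8% of all genes). Without mouse 1 or mouse 2 of cluster 6, 5 and 1 were lower, and without those of cluster 13, 2 and 15. Each of the 4 named falls missed the threshold in 2 or more of these 4 fits. All 6 fibroblast markers were higher in cluster 6, summing to 1472 and 2850 CPM against 27.1 and 232 CPM. The 3 endothelial markers that were tested were higher too. All 6 endothelial markers on the list summed to 30.2 and 375 CPM against 0.82 and 0.41 CPM. Of the epithelial markers 5 of 6 were lower, the list summing to 8429 and 7559 CPM against 25542 and 24673 CPM.

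The share of the family was then set aside by dividing each sum by its member UMIs. On that scale 54 of 83 members still varied over the clusters, against 87.4% of all genes. The ratio of large- to small-subunit UMIs varied little, from 1.32 to 1.44 in mouse 1 and from 1.27 to 1.42 in mouse 2. Among the members with the smallest p were Rpl36, Rpl37a, Rpl4, Rpl13, Rpl41 and Rps27l.

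Rpl37a was 2.75% and 2.83% of the member UMIs in cluster 1 and 1.07% and 1.30% in cluster 13 (adjusted p = 3.6e-07 over the clusters). Rpl13 ran from 2.73% and 2.59% in cluster 1 to 1.27% and 1.18% in cluster 2 (adjusted p = 1.5e-06). For both of these members the highest and the lowest cluster were the same in both mice. Rpl41 was 2.69% and 2.70% in cluster 8 and 1.46% and 1.48% in cluster 10 (adjusted p = 4.2e-06). Rpl4 was 0.46% and 0.51% in cluster 16, the highest mean, though clusters 13 and 10 were higher in mouse 1 (0.47% each), and 0.24% and 0.22% in cluster 14, the lowest in both mice (adjusted p = 5.8e-07).

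In cluster 6 against 13 on this scale, Rps19bp1, Rpl7l1 and Rpl37a were higher (3 of 83, against 22.3% of all genes) and Rpl27a was lower (1 of 83, against 4.16%). Rpl37a differed by 0.40 (SE 0.11, adjusted p = 0.012) and Rpl27a by -0.35 (SE 0.13, adjusted p = 0.040).

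In cluster 16 the 8 proliferation genes summed to 1674 and 1715 CPM there and to at most 369 CPM in any other sum, and all 8 were higher than in the mean of the others (7 of 8 were also higher in clusters 4 and 8). Of the 83 members 11 were higher in cluster 16 (against 15.5% of genes) and 1 was lower (against 8.98%). The largest rise was that of Rps27l and the only fall that of Rps27, its paralog; the 2 proteins stand in for each other in the small subunit. The coding sequences, from GENCODE vM21 without the stop codon, differ at 60 of 252 bases (76.2% identity), and bases that differ are in capitals.

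Rps27: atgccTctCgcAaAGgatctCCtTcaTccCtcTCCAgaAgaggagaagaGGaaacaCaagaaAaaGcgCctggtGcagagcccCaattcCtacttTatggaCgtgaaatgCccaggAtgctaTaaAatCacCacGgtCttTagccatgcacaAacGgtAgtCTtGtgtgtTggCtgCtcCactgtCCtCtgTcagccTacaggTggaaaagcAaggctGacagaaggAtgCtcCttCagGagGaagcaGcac

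Rps27l: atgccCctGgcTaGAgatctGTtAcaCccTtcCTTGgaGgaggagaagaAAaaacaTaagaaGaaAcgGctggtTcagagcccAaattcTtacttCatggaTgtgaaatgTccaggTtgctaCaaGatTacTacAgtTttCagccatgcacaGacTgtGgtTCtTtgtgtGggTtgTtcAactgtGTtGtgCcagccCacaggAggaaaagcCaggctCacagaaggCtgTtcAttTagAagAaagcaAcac

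Rps27l (chromosome 9, 66946086 to 66949516, plus strand, GRCm38) was at 1212 and 1939 CPM in cluster 16, against medians of 753 and 899 CPM over the clusters, and rose by 0.89 (SE 0.17, adjusted p = 0.00039). Rps27 (chromosome 3, 90212522 to 90213651, minus strand) was at 1219 and 1807 CPM, against medians of 1554 and 2222 CPM, and fell by 0.50 (SE 0.15, adjusted p = 0.014). Relative to the family sum the directions were the same, by 0.72 (SE 0.14) for Rps27l and -0.65 (SE 0.15) for Rps27. Rps27l reached 0.56% and 0.80% of the member UMIs in cluster 16, below cluster 4 in both mice (0.59% and 0.87%) and below cluster 10 in mouse 1 (0.57%). Without mouse 2 of cluster 16 neither call held (adjusted p = 0.15 for Rps27l and 0.078 for Rps27) and no member was called higher there. Without mouse 1, 9 were higher, and the fall of Rps27 did not pass (adjusted p = 0.19). Without the block for mouse the fall of Rps27 did not pass (adjusted p = 0.26).

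**Figure D4:**
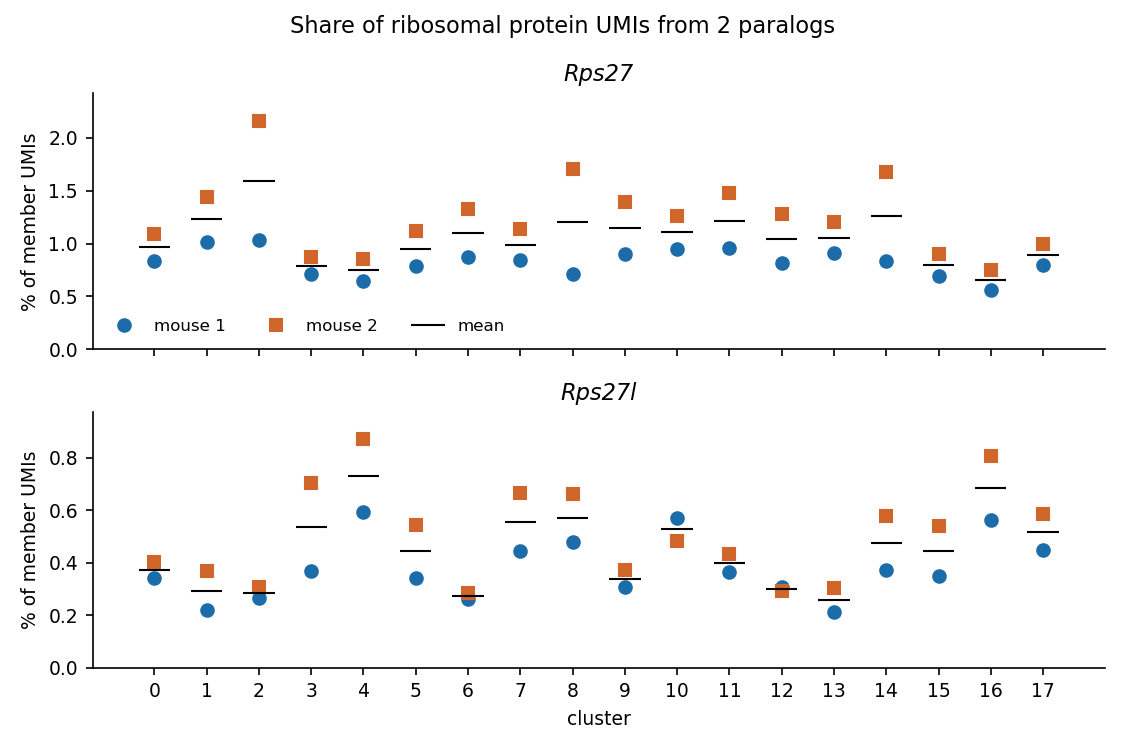
Share of the ribosomal protein UMIs (percent, y axis) given by Rps27 and by Rps27l in each cluster (x axis); circles are mouse 1, squares mouse 2 and bars the mean. In cluster 16 Rps27 is at its lowest, 0.57% and 0.75%, while Rps27l is near its highest, 0.56% and 0.80%.

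Rps27rt, an intronless copy on chromosome 9, has a coding sequence identical to that of Rps27, so reads from inside it cannot be told apart, and its values (39.0 and 44.2 CPM in all annotated cells) are uncertain. In cluster 16 it was lower by 0.43 (SE 0.17, adjusted p = 0.074). The other paralogs in the set are more distant in coding sequence: Rpl36al matched Rpl36a at 87.7% of aligned bases, Rpl3l matched Rpl3 at 73.1%, Rpl22l1 matched Rpl22 at 66.9% and Rpl7l1 matched Rpl7 at 51.2%.

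The next largest rises in cluster 16 were those of Rpsa, the laminin receptor homologue of the small subunit, at 2901 and 3620 CPM against medians of 1732 and 2155 CPM (0.71, SE 0.18, adjusted p = 0.0041), and of Rpl4, at 997 and 1233 CPM against medians of 746 and 789 CPM (0.57, SE 0.12, adjusted p = 0.0012). Rps2 and Rpl14 rose by 0.57 (SE 0.16) and 0.56 (SE 0.13). In mouse 2, cluster 16 was the highest of the 18 clusters for these 4 genes. In mouse 1 the highest was cluster 4 for Rpsa, Rpl4 and Rpl14 and cluster 14 for Rps2, and without mouse 2 of cluster 16 none of the 4 passed, with log2 fold changes of 0.24 (Rps2) to 0.51 (Rpsa). Relative to the family sum, 10 members were higher (against 10.4% of genes) and 5 lower (against 11.3%), the 5 being Rps27, Rpl24, Rpl37, Rpl17 and Rpl37a.

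Levels are UMIs of the 3′ end as CPM, counted once per transcript and not scaled by length. Core members had mean levels of 803 to 6445 CPM, with a median of 2398 CPM. Among the highest were Rps24 (6445 ± 3446 CPM, SD, n = 2 mice), Rpl23 (5013 ± 937), Rps27a (4094 ± 694) and Rplp1 (4027 ± 134). Rps27a is made as a fusion with ubiquitin, and Rplp1 forms part of the stalk. The 5 lowest were outside the core, namely Rpl22l1 at 759 CPM, Rpl7l1 at 94.0, Rps19bp1 at 74.9, Rps27rt at 41.6 and Rpl3l at 0.21, and Rpl4 was the lowest core member. Retrocopies of many members exist, so the part of the reads dropped for mapping to several places may differ between genes.

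Rps24, a small-subunit protein needed for rRNA processing, set itself apart by mouse. Its level was 8882 CPM in mouse 1 and 4008 CPM in mouse 2 over all annotated cells. Outside clusters 2 and 8 it was higher in mouse 1 in each of the 16 clusters, by 1.37 to 2.60-fold. In clusters 2 and 8 it was the other way round, with 1931 and 2284 CPM in mouse 1 and 2784 and 2704 CPM in mouse 2. The difference between mice had the largest median of the 83 members, 1.09 on the log2 scale, and the next core member was Rpl26 (0.50, higher in mouse 1 in 18 of 18 clusters). At the other end Rps27 was higher in mouse 2 in 18 of 18 clusters (median -0.48). Over the members the median size of the difference was 0.12, against 0.20 over all genes, and 6 members (7.23%) had the same sign in all 18 clusters, against 1.03% of all genes. With 1 library per mouse, animal, library and tumor cannot be told apart, and the difference was not tested.

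**Figure D5:**
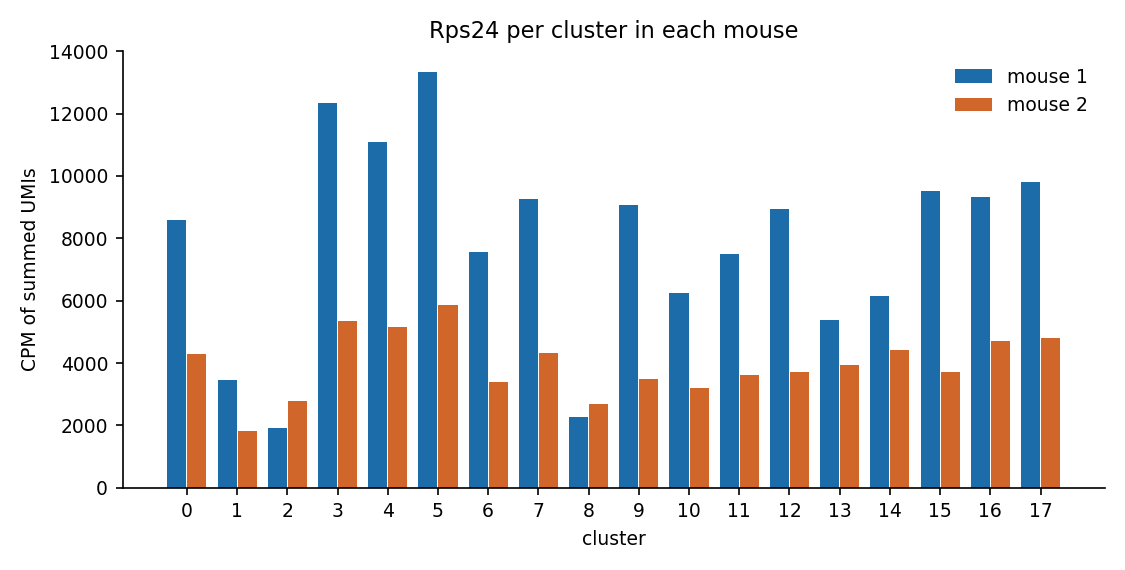
Rps24 level (CPM of summed UMIs, y axis) per cluster (x axis) in mouse 1 (left bar of each pair) and mouse 2 (right bar). Mouse 1 is higher in all clusters except 2 and 8, where it is at 1931 and 2284 CPM.

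Among 2759 genes outside the family with at least 50 CPM, the 8 whose log2 level over the 18 clusters went most closely with the family's were Eef1b2, Rack1, Eif3i, Cox4i1, Cox7a2, Anp32a, Gm10260 and Naca. Pearson r over the clusters, taken as the lower of the 2 mice, was 0.93 for Eef1b2, a translation elongation factor, 0.88 for Rack1, a ribosomal scaffold protein not caught by the name rule, and 0.86 for Eif3i, an initiation factor subunit. It was 0.82 to 0.84 for the other 5. The points share libraries and the UMI total by which all values were divided.

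A list of 15 genes with mRNAs of the 5′ TOP class held translation factors and others such as Tpt1, Npm1 and Hnrnpa1. Of these 15 genes, 14 were lower and none higher in cluster 1, against 18.2% and 27.7% of all genes. In cluster 6 against 13, 6 were lower and none higher, against 10.4% and 11.9%. Eef1a1, the elongation factor that brings tRNA to the ribosome, differed by -0.96 in cluster 1 (SE 0.15, adjusted p = 1.2e-05) and by -0.84 in cluster 6 against 13 (SE 0.19, adjusted p = 0.0022). In cluster 5, 4 were higher, against 0.845%. Of 25 ribosome biogenesis genes 5 were higher and 6 lower in cluster 1, and in cluster 6 against 13 3 were higher and 1 lower. In cluster 16, 10 were higher and 1 lower, against 15.5% and 8.98% of all genes, and Ncl, the nucleolar protein nucleolin, rose by 1.03 (SE 0.11).

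The genes of the mitochondrial ribosome, a separate set of 78, had 53 lower and 3 higher in cluster 1, against 18.2% and 27.7% of all genes. In cluster 5 none was called in either direction, and in cluster 14, 53 were higher (11% of all genes). In cluster 16, 46 were higher and 1 lower (15.5% and 8.98%). Clusters 4 and 8 likewise had 46 higher each (9.13% and 18.2%), with 2 lower in cluster 8 (13.9%). Against the mean of the others, cluster 6 had 31 lower (8.48%). In cluster 6 against 13, 7 of 78 were lower and 2 higher, a lower count near the 10.4% of all genes and a higher count under the 11.9%. Of ribosomal proteins outside the name rule, Fau and Rack1 were both lower in cluster 1, by -0.49 (SE 0.13) and -1.43 (SE 0.12) on the log2 scale. Rack1 was higher in cluster 5, by 0.63 (SE 0.10, adjusted p = 0.003), and Fau was lower in cluster 6 against 13, by -0.58 (SE 0.17, adjusted p = 0.014).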

How the data were processed

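The authors aligned 10x reads to mm10 with Cell Ranger 6.0.1 and deposited raw UMI counts per gene and barcode for each mouse. Their processing notes name Seurat 4.0.3. The deposited annotation gave each kept cell's cluster and its mitochondrial fraction; deposited pathway scores were not used. Doublets were not called again here.

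Counts were summed per mouse and cluster (36 sums). Genes were filtered with filterByExpr, leaving 11603, scaled by TMM (factors 0.883 to 1.113) and tested with edgeR 4.0.16 (limma 3.58.1, R 4.3.3) by the quasi-likelihood test with mouse as a block (17 residual degrees of freedom, biological coefficient of variation 0.222). P-values were adjusted by Benjamini-Hochberg over all tested genes, called at 0.05. SE is the size of the log2 fold change over the root of F. DESeq2 1.42.0 was an alternative. The block rests on sums of the same animal; correlations of cluster deviations between the mice over 153 cluster pairs ran from -0.020 to 0.641 (median 0.137). The block took out the overall difference between the 2 mice. P-values rest on the spread that remained, pooled over the 36 sums, and cover no further animals. The authors built the clusters from the genes tested here.

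On simulated counts for cluster 6 against 13 (10610 genes), 22 of 94 genes changed 2-fold and 76 of 94 changed 4-fold were called, with 0 of 10422 unchanged genes.

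The members and lists were chosen with earlier results of these data known. In clusters 6 against 13 and 16, the 5 largest changes each way with one sign in both mice were named, beside the 5 highest and 5 lowest members, all paralogs, the 8 smallest p relative to the family sum and the 8 genes most like the family. Some genes that this rule names are not reported here. Positions are from GENCODE vM21 (GRCm38) and start windows from RefSeq (GRCm38.p6).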

Additional observations from a re-analysis of the deposited data

Results flagged for a closer look

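Barcodes that the authors gave no cluster were outside every comparison, yet held ribosomal protein UMIs. The share was 6.41% of the UMIs of 2346 such barcodes in mouse 1 and 10.3% of those of 2208 in mouse 2, against 19.5% and 19.8% in annotated cells. Mitochondrial UMIs made up a median of 85.7% and 72.4% per unannotated barcode, and with these left out of the denominator the share was 14.8% and 16.7%. Some unannotated barcodes, 35 and 260, had a mitochondrial share at or below the highest among annotated cells of their mouse (19.4% and 19.3%). Their ribosomal protein shares were 22.0% and 19.7%.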

How the results depend on the processing

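Alternatives were run for single genes only for the largest changes in cluster 6 against 13 and in cluster 16, and none of these changed sign; of the recomputed counts and shares 71 stayed and 39 moved, a count by over 1.5 times and a share by over 1 SD. Percentages in brackets here are the shares of all genes called in the same direction. With library totals, 10 members were lower and 2 higher in cluster 6 against 13 (7.79% and 14.3%). Clusters 3, 5, 13 and 16 gave 18, 21, 21 and 19 higher (4.83%, 0.302%, 13.8% and 18.7%). Cluster 13 also gave 3 lower (12.8%), cluster 16 gave 1 lower (6.80%) and cluster 6 gave 2 lower (7.06%). Without a filter on low counts, 23 were lower in cluster 6 against 13 (5.04%). In that setting 21 were higher in cluster 3 (3.41%) and 2 lower in cluster 6 (3.68%). Without cells carrying markers of other cell types, 15 were lower and 2 higher in cluster 6 against 13 (9.26% and 10.8%). Cluster 6 then gave 2 lower (5.79%), and TMM factors from genes outside the family gave 2 lower there (7.31%). Without the replicate block for mouse, clusters 3, 4 and 5 gave 1, 14 and 0 higher (1.22%, 5.86% and 0.0172%). Cluster 6 gave 2 lower (5.70%), and 34 members varied relative to the family sum. Without the block, Rps28 in cluster 6 against 13 (adjusted p = 0.055, edgeR) and Rps27 in cluster 16 (0.26) missed the threshold. DESeq2 called 36 lower and 2 higher in cluster 6 against 13 (9.42% and 11.9%) and 70 higher in cluster 5 (1.96%). Leaving out 1 mouse of a tested cluster gave 1 to 15 in cluster 6 against 13, 63 to 80 for cluster 1, 5 to 14 for 2, 0 to 1 for 3, 1 to 11 for 4, 0 to 1 for 5, 0 to 2 for 6, 8 to 16 for 8, 3 to 11 for 13, 5 to 26 for 14 and 0 to 9 for 16. These fits assume that the lone sum varies like the others; they were run for these 10 clusters, and the test over 18 clusters has no residual degrees of freedom with 1 mouse. The median cell had a share of 6.52% in cluster 1 and 28.7% in cluster 5, where the share was 28.4% without mitochondrial UMIs; single mice gave 10.1% to 12.7% and 26.1% to 27.9%. Library totals moved the median of all genes to 0.13 in cluster 6 against 13 and to -0.24 in cluster 14, and TMM factors from genes outside the family moved it from 0.20 to -0.0020 in cluster 1. The cause of these changes was not tested.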
